A study of Rattus norvegicus with 300 samples.

Results

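Transcripts of 10 genes of acetylcholine signalling were followed across 10 regions of the rat brain under 6 treatments. The genes were Chat, which makes acetylcholine, the choline transporter Slc5a7, the acetylcholinesterase Ache, the muscarinic receptors Chrm1, Chrm2, Chrm3 and Chrm4, and the nicotinic receptor subunits Chrna4, Chrna7 and Chrnb2. They were chosen by symbol, and all 10 were among the 17337 genes of the count table. The tissue came from male Long Evans rats, 60 days old, treated through the drinking water for 3 weeks. FT was taken at 13 mg/kg/day. The dose of Bupropion was 15 and that of Desipramine 7.5 mg/kg/day. Another group drank Probiotics, and its reference drank Maltodextrin, the carrier, at 10 g/L, while Control rats drank plain water. The abbreviation FT is not spelled out, and among the drugs the protocol lists, fluoxetine alone belongs to no other group. The labels disagree on the probiotic dose, so none is printed. Each region and treatment had 5 libraries of total RNA, 300 in all. The regions carry the labels' own abbreviations, mPOA, NACShell, Raphe, CGC, PLC, BLA, ILC, LConly, dorDG and venDG. Punches were pooled by region before extraction and the number of rats in a pool is not given, so the p-values rest on the spread among libraries, which may be technical. The labels name no batch, and a batch cannot be told apart from a treatment.

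Acetylcholine is made from choline and acetyl-CoA, released from vesicles and broken down in the synaptic cleft, after which the choline is taken up again for synthesis. It acts on muscarinic receptors, which couple to G proteins, and on nicotinic receptors, which are ion channels built from several subunits. Cholinergic cell bodies lie in the basal forebrain and preoptic area, among the interneurons of the striatum and accumbens, and in brainstem and cranial motor nuclei, while most other regions receive their fibres. Bupropion, an inhibitor of dopamine and noradrenaline uptake, is also known as a blocker of nicotinic receptors.

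Library totals ran from 198260 to 18310687 counts with a median of 9232563, and the 4 libraries under 1000000 counts were from Desipramine. The shallowest, Desipramine replicate 3 of BLA, had 222 summed CPM of striatal projection neuron markers, beside 1846 to 1898 in the other 4 libraries, and 60.5 of serotonin neuron markers, beside 4.94 to 6.99. It was kept in the fits, and leaving out the 4 shallow libraries ended 0 calls of these genes and added 0. Levels are counts per 1000000 counts of the library (CPM), and log2 changes, given ± their standard error, come from edgeR fits with TMM scaling. Relative to the ratio of mean CPM these fitted changes were shifted by -0.46 to 0.33, depending on region and comparison. Overlap of groups was judged on CPM without TMM scaling, so a narrow gap need not hold on the fitted scale. Of 411 called tests of the 10 genes over 7 comparisons, 3 had a CPM ratio on the other side of no change, namely Chrm4 in CGC and ILC for Desipramine against Control and Slc5a7 in LConly for Bupropion against Desipramine. FT libraries with the labels ILC and LConly held the markers of the opposite label. Dbh, which makes noradrenaline, averaged 255 ± 39.4 CPM in FT libraries labelled ILC, against 0.305 ± 0.164 CPM in Control ILC, and 0.651 ± 0.302 CPM in FT libraries labelled LConly, against 140.1 ± 12.8 CPM in Control LConly (SD, n = 5 each). BLA libraries held striatal projection neuron markers, at 2208 to 2319 summed CPM in Control. Of the marker lists used below, 6 were in the table in full, while the cranial motor neuron list had 4 of 5 genes there and the dentate granule cell list 2 of 3. Whole groups stood apart in markers in BLA, dorDG, ILC, LConly and venDG, so counts are also given over CGC, mPOA, NACShell, PLC and Raphe. Marker sums differed between groups there too, as given below for mPOA, NACShell, PLC and Raphe, so these regions are not free of such shifts. In bulk tissue, fewer cells of a type and less RNA per cell cannot be told apart.

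Calls were made in many regions in each of the comparisons. A test was called at a Benjamini-Hochberg adjusted p under 0.05 over all genes of a region, and 98 tests were made per comparison because Chat was too low in dorDG and venDG. FT gave 34 of 98 tests higher than Control and 26 lower, where 27.1% and 26.3% of the tests of all genes were. Outside ILC and LConly, 41 of 78 tests were called for FT in either direction, beside 47.3% of all genes. Bupropion gave 34 higher and 23 lower, beside 22.9% and 23.4% of all genes. Desipramine gave 34 higher and 29 lower, beside 26.4% and 27.9%. Probiotics gave 39 higher and 11 lower than Maltodextrin, beside 21.7% and 21.1%. Maltodextrin gave 25 higher and 27 lower than Control, beside 18.4% and 19.5%. In CGC, mPOA, NACShell, PLC and Raphe, 23 of 50 tests were higher with Probiotics and 4 lower, beside 20.2% and 18.5% of all genes in these regions. With Maltodextrin 9 of 50 were higher than Control and 20 lower, beside 20.4% and 22.1%. Both comparisons use the Maltodextrin libraries. The median log2 change over the 98 tests was 0.03 for FT, 0.11 for Bupropion, 0.09 for Desipramine, 0.19 for Probiotics and 0.03 for Maltodextrin, where the median of all genes lay between -0.01 and 0.00.

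**Figure D1:**
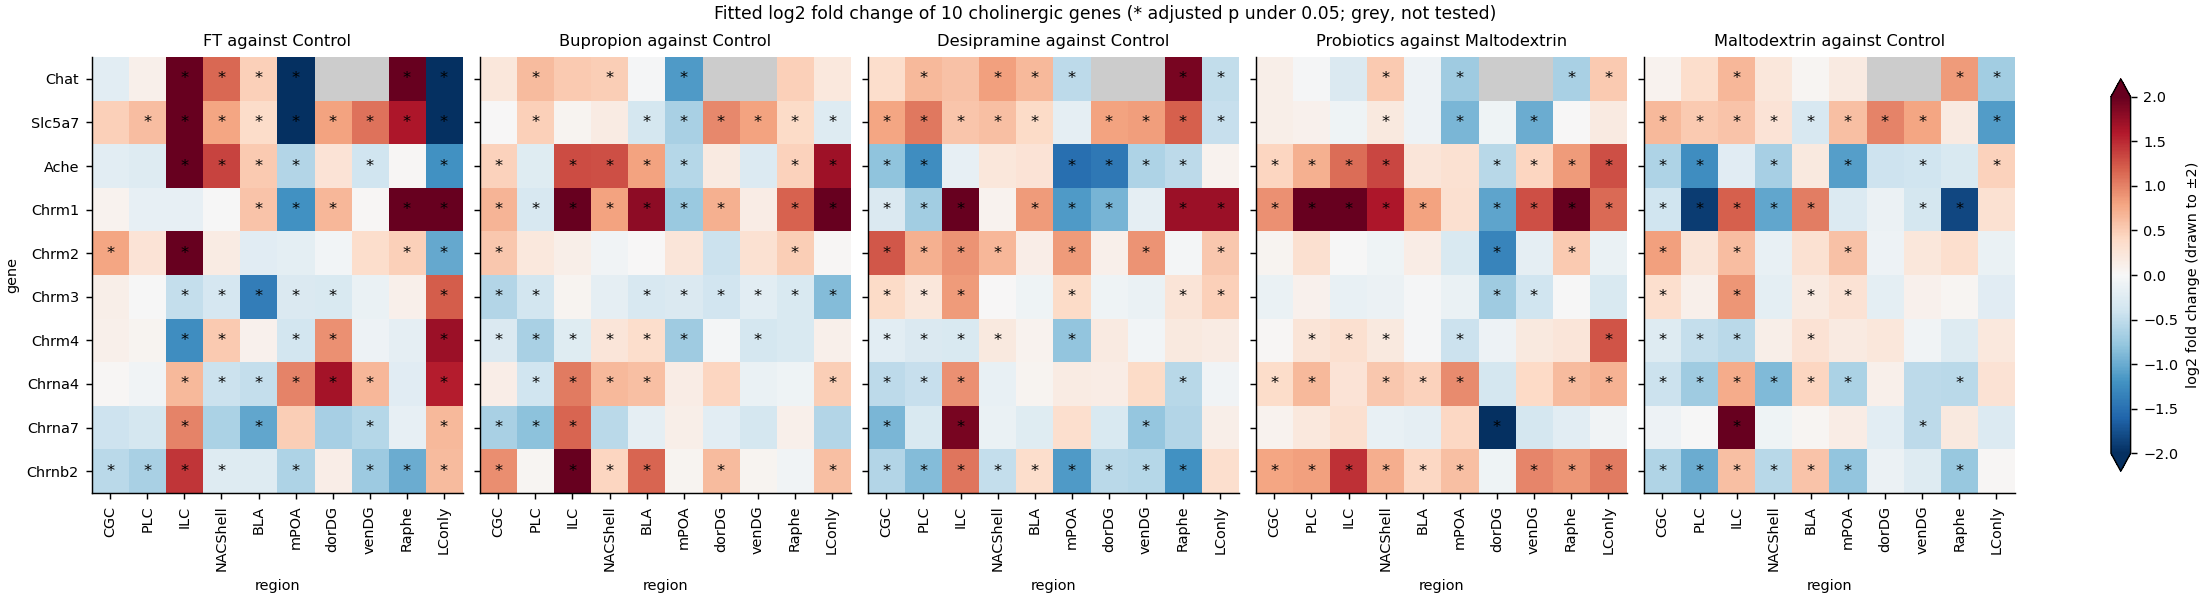
Fitted log2 fold change of the 10 genes (rows) in 10 regions (columns) for 5 comparisons, with colour for size and direction, a star for an adjusted p under 0.05 and grey for genes not tested. Probiotics against Maltodextrin holds 39 starred increases and 11 starred decreases, and Chat in mPOA is lower with each of the 3 drugs.

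Chat was lower in mPOA and higher in NACShell under each of the 3 drugs. Slc18a3, the vesicular acetylcholine transporter, lies inside the Chat gene on the same strand in the RefSeq annotation of GRCr8, so the counting may have split reads between the pair. The 250 bases before the start of these 2 genes and of Slc5a7 are shown because all 3 were lower in mPOA with FT and Bupropion. They are RefSeq sequences of build GRCr8, at chr16:7723417-7723666 (minus strand) for Chat, chr16:7722815-7723064 (minus strand) for Slc18a3 and chr9:7953510-7953759 (minus strand) for Slc5a7, with CACGTG (an E-box) and GGGCGG (a GC box) on either strand in capitals.
Chat: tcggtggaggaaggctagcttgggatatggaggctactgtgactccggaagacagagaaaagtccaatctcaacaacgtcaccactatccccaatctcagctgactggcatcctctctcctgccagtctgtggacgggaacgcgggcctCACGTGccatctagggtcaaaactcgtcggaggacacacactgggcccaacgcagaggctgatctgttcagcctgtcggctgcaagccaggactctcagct
Slc18a3: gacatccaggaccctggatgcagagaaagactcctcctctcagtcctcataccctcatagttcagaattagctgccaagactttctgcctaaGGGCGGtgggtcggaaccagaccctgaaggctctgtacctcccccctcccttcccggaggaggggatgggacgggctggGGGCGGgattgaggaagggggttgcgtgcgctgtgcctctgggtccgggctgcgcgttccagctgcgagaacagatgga
Slc5a7: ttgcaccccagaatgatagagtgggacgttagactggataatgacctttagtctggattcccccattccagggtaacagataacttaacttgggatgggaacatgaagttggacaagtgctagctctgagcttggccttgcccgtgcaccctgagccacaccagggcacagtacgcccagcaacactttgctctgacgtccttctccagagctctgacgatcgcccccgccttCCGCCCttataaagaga
The Chat window holds CACGTG once, as 5.79% of 27457 rat windows of this length do, and no GGGCGG, which 32.4% hold. GGGCGG was found at 2 places before Slc18a3 and at 1 before Slc5a7, overlapping matches counted. TAATTA and TGACGTCA were searched as well, are in none of the 3 windows, and are in 4.94% and 1.70% of all windows. Matches describe letters only.

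Control Chat was highest in mPOA (38.5 ± 2.45 CPM; SD, n = 5 here and below), then LConly (17.1 ± 1.91 CPM), BLA (11.8 ± 1.61 CPM) and NACShell (9.97 ± 0.943 CPM), followed by CGC (1.56 ± 0.598 CPM), PLC (1.15 ± 0.251 CPM), ILC (0.803 ± 0.471 CPM), Raphe (0.767 ± 0.283 CPM), dorDG (0.312 ± 0.316 CPM) and venDG (0.296 ± 0.282 CPM). In exact permutation tests of 90 neighbouring pairs over the 10 genes, mPOA differed from LConly, LConly from BLA, and NACShell from CGC (adjusted p = 0.0255 each, the smallest reached), and the other neighbours did not. Below, a step is a pair of neighbours in a gene's order that passed, and regions farther apart were not tested against each other. In mPOA, Chat had 8.40, 7.09, 4.75, 5.08 and 3.91 CPM in FT, against 34.6, 40.2, 37.8, 40.5 and 39.6 CPM in Control. Every FT library lay far below every Control library (-2.93 ± 0.105, adjusted p = 3.05e-21). Bupropion had 19.3, 16.7, 15.9, 17.4 and 16.6 CPM in mPOA and also lay below all of Control (-1.13 ± 0.0837, adjusted p = 3.51e-12). Desipramine averaged 31.8 ± 1.59 CPM there (-0.52 ± 0.0824, adjusted p = 1.83e-06). Probiotics had 31.2, 28.9, 31.7, 33.8 and 28.2 CPM, against 43.5, 47.3, 47.9, 50.3 and 46.9 CPM in Maltodextrin. These groups did not overlap (-0.71 ± 0.0814, adjusted p = 2.46e-08). Slc18a3 in mPOA averaged 2.46 ± 0.355 CPM in FT, 4.67 ± 1.06 CPM in Bupropion and 6.18 ± 1.23 CPM in Desipramine, against 12.4 ± 2.18 CPM in Control, and was called lower in all 3. Maltodextrin, at 7.83 ± 0.799 CPM, was called lower than Control too, although Chat was not (0.18 ± 0.0785, adjusted p = 0.0638).

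Markers of other cells moved in mPOA too, and their part in the Chat result was not tested. The cholinergic neuron list, whose 7 genes were all counted and include Slc18a3, summed to 44.0 to 55.7 CPM in FT, 73.9 to 88.4 in Bupropion and 98.2 to 111 in Desipramine, against 130.4 to 154 CPM in Control. In Probiotics it summed to 106 to 114 CPM, against 129.9 to 139 in Maltodextrin. The list was thus low where Chat was low. GABA neuron markers summed to 588 to 712 CPM in FT and 848 to 980.2 in Bupropion, against 1101 to 1199 CPM in Control. Hypothalamic markers were at 859.5 to 3143 CPM in FT and 2160 to 3463 in Bupropion, against 1101 to 1471 CPM in Control, so that FT spanned the Control range and Bupropion lay above it. Oligodendrocyte markers were at 18253 to 30043 CPM in FT, against 45050 to 56143 CPM in Control.

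In NACShell, Chat had 25.8, 24.4, 24.5, 23.0 and 23.1 CPM in FT, against 9.56, 8.92, 11.5, 10.2 and 9.73 CPM in Control, with a wide gap between the groups (1.14 ± 0.0817, adjusted p = 1.02e-13). Desipramine had 26.3, 18.4, 20.8, 19.3 and 20.7 CPM, each library above all of Control (0.82 ± 0.0863, adjusted p = 1.76e-09). Bupropion averaged 14.9 ± 0.849 CPM (0.49 ± 0.0827, adjusted p = 6.61e-06), and Probiotics 18.7 ± 0.911 CPM, against 13.2 ± 1.53 CPM in Maltodextrin (0.52 ± 0.0856, adjusted p = 7.15e-06). The cholinergic list in NACShell summed to 67.4 to 75.4 CPM in FT, 43.8 to 47.1 in Bupropion and 39.8 to 47.3 in Desipramine, against 20.1 to 27.4 CPM in Control. Hypothalamic markers were also up in FT NACShell, at 114 to 309 CPM against 4.52 to 8.57 CPM in Control. In Raphe, Chat had 5.26, 7.28, 6.75, 6.35 and 6.44 CPM in FT and 3.29, 3.10, 3.57, 3.45 and 4.11 CPM in Desipramine, against 0.801, 0.666, 1.16, 0.379 and 0.829 CPM in Control. Both lay above all of Control, with log2 changes of 2.72 ± 0.203, adjusted p = 2.07e-13 for FT, and 1.90 ± 0.213, adjusted p = 2.91e-09 for Desipramine. Maltodextrin had 1.81, 1.64, 1.33, 1.29 and 1.16 CPM in Raphe and was called higher (0.85 ± 0.243, adjusted p = 0.00661). Its lowest library was about level with the highest of Control. Cranial motor neuron markers in Raphe summed to 43.7 to 65.6 CPM in FT, 45.2 to 51.4 in Desipramine and 43.8 to 52.3 in Maltodextrin, against 33.7 to 38.1 CPM in Control. Prph carried nearly all of these sums, while Mnx1 was at 0 in Control and Maltodextrin and Tbx20 in Desipramine. The sum was 44.7 to 47.8 CPM in Bupropion, where Chat was not called (0.47 ± 0.247, adjusted p = 0.121).

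**Figure D2:**
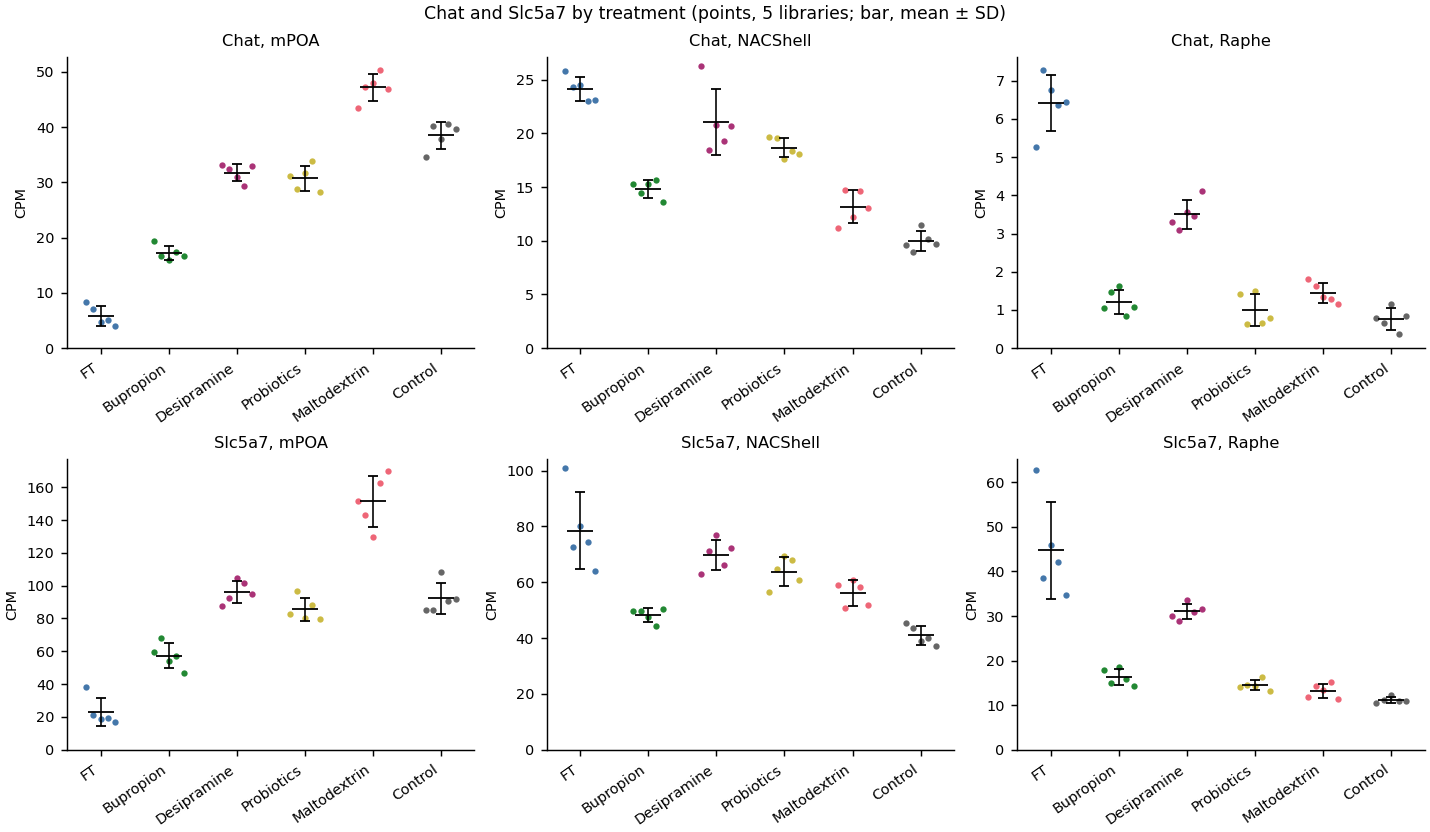
CPM of Chat and Slc5a7 in mPOA, NACShell and Raphe under the 6 treatments, with a point for each of the 5 libraries of a group and bars for the mean ± SD. In mPOA the FT libraries of Chat lie at 3.91 to 8.40 CPM, under the Control libraries at 34.6 to 40.5 CPM, and in NACShell and Raphe they lie above Control.

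Slc5a7, the high-affinity transporter that brings choline back into cholinergic terminals, was lower in mPOA with FT and Bupropion, as Chat was, and higher in Raphe with Desipramine. In Control it was highest in LConly (116 ± 18.2 CPM) and mPOA (92.3 ± 9.54 CPM), which did not differ by the exact permutation test. BLA (46.4 ± 3.18 CPM) and NACShell (41.1 ± 3.39 CPM) came next and did not differ either, and Raphe (11.1 ± 0.678 CPM) and dorDG (7.26 ± 0.846 CPM) each stood below the region before. ILC (4.75 ± 0.931 CPM), venDG (4.45 ± 0.677 CPM), PLC (3.61 ± 0.722 CPM) and CGC (2.95 ± 0.438 CPM) closed the order without a step between them. In mPOA, Slc5a7 had 38.1, 21.4, 19.0, 19.1 and 16.6 CPM in FT, against 85.2, 85.4, 109, 90.8 and 91.8 CPM in Control. FT replicate 1 was the highest of its group and still under every Control library (-2.22 ± 0.106, adjusted p = 7.31e-18). Bupropion had 59.8, 68.3, 54.4, 57.2 and 47.0 CPM, again below all of Control (-0.65 ± 0.0927, adjusted p = 1.25e-06), and with Control and Maltodextrin pooled the change was -0.99. Desipramine averaged 96.3 ± 6.77 CPM and was not called (-0.18 ± 0.0923, adjusted p = 0.0880). Probiotics had 82.9, 96.5, 80.0, 88.5 and 79.5 CPM, against 152, 143, 129.9, 163 and 169.6 CPM in Maltodextrin, a gap without overlap (-0.92 ± 0.0917, adjusted p = 1.64e-09). Maltodextrin itself lay above all of Control (0.60 ± 0.0902, adjusted p = 4.68e-06).

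Over 10 regions and against Control, Slc5a7 was higher in 7 and lower in 2 with FT, higher in 4 and lower in 3 with Bupropion, higher in 8 and lower in 1 with Desipramine, and higher in 7 and lower in 2 with Maltodextrin. In Raphe it had 30.1, 28.9, 33.6, 31.0 and 31.6 CPM in Desipramine, against 10.5, 11.1, 12.3, 10.9 and 10.8 CPM in Control (1.202 ± 0.0941, adjusted p = 1.24e-12). Every Desipramine library exceeded every Control library, and FT averaged 44.8 ± 10.9 CPM (1.62 ± 0.0943, adjusted p = 5.03e-16). FT libraries labelled ILC had 112, 105, 97.9, 111 and 101 CPM, against 5.35, 3.34, 4.35, 5.70 and 5.03 CPM in Control (4.02 ± 0.0951, adjusted p = 6.30e-30). FT libraries labelled LConly had 12.5, 6.90, 7.29, 7.38 and 6.39 CPM, against 106, 108, 105, 115 and 148 CPM in Control (-4.22 ± 0.104, adjusted p = 8.64e-27). These 2 FT groups held each other's regional markers, as Dbh shows, and their changes cannot be told apart from the exchange of labels. Maltodextrin in LConly had 71.0, 56.6, 53.4, 59.1 and 53.7 CPM and lay below Control (-1.12 ± 0.0796, adjusted p = 7.30e-13). Over the 30 group means of CGC, mPOA, NACShell, PLC and Raphe, centred by region, Chat and Slc5a7 correlated at r = 0.927, a description of points that share libraries.

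Ache, which ends the signal and is made by many neurons besides cholinergic ones, was higher in NACShell with FT, Bupropion and Probiotics and lower in mPOA with Desipramine. The 250 bases before its start are shown with those of Chrnb2 and Chrm1, the members whose region-centred means over the same 30 groups were most like its own (r = 0.690 and 0.591). The windows are at chr12:25050411-25050660 (minus strand) for Ache, chr2:177487307-177487556 (minus strand) for Chrnb2 and chr1:214996109-214996358 (plus strand) for Chrm1, from RefSeq on GRCr8 with the same motifs in capitals.
Ache: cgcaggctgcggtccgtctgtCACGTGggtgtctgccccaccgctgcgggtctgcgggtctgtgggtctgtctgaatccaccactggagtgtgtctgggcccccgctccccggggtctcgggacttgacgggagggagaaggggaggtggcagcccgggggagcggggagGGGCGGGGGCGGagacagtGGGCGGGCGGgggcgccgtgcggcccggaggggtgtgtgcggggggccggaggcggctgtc
Chrnb2: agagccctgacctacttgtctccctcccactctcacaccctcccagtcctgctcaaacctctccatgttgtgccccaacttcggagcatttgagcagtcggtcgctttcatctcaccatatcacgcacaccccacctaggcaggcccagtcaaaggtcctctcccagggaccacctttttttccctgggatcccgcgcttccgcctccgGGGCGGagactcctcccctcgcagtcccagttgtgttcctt
Chrm1: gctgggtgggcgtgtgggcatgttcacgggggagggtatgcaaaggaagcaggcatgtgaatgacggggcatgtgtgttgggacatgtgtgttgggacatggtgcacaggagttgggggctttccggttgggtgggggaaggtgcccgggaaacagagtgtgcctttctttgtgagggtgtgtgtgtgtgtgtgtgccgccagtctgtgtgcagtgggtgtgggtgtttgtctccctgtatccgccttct
The Ache window is 75.6% G and C, against a median of 52% over all windows, and holds GGGCGG at 4 places and CACGTG at 1. The Chrnb2 window holds GGGCGG at 1 place, and the Chrm1 window holds none of the 4 motifs.

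Control Ache was highest in mPOA (186 ± 8.52 CPM), then Raphe (54.6 ± 1.55 CPM) and LConly (38.0 ± 5.73 CPM), each step passing the exact permutation test. From LConly on no step passed through venDG (31.7 ± 2.40 CPM), BLA (29.7 ± 3.69 CPM), PLC (26.4 ± 3.01 CPM), NACShell (25.0 ± 2.42 CPM), CGC (24.7 ± 2.66 CPM) and dorDG (22.5 ± 3.24 CPM), and ILC stood below them (5.44 ± 0.580 CPM). In NACShell, Ache had 34.8, 82.3, 76.4, 73.0 and 75.2 CPM in FT and 56.6, 64.9, 70.8, 63.5 and 67.8 CPM in Bupropion, against 22.1, 24.6, 26.7, 28.2 and 23.6 CPM in Control. All libraries of both drugs lay above Control, with FT replicate 1 lowest among them. The log2 changes were 1.36 ± 0.127, adjusted p = 7.39e-11 with FT, and 1.29 ± 0.125, adjusted p = 1.38e-10 with Bupropion. Probiotics had 46.8, 45.9, 43.3, 42.4 and 44.5 CPM, against 18.6, 18.1, 20.0, 16.4 and 16.6 CPM in Maltodextrin, again without overlap (1.33 ± 0.146, adjusted p = 3.46e-09). In mPOA, Desipramine had 70.9, 69.7, 81.9, 74.6 and 88.7 CPM, against 195, 185, 173, 188 and 191 CPM in Control (-1.52 ± 0.172, adjusted p = 3.57e-09). Maltodextrin, given without a drug, averaged 94.0 CPM there, so a low mean of Ache in mPOA was not particular to Desipramine. FT (-0.58) and Bupropion (-0.57) were called lower in mPOA as well, FT not when fitted on the FT and Control libraries alone (-0.60, adjusted p = 0.0570), and neither with Control and Maltodextrin pooled (-0.14, adjusted p = 0.632 for FT, and -0.13, adjusted p = 0.697 for Bupropion). In PLC, Maltodextrin had 10.5, 10.7, 9.19, 9.16 and 13.2 CPM, against 26.7, 22.2, 25.2, 27.7 and 30.3 CPM in Control, and all its libraries were lower (-1.24 ± 0.158, adjusted p = 8.00e-08). Over 10 regions Ache was higher than Control in 6 and lower in 1 with Bupropion, higher in 0 and lower in 6 with Desipramine, and higher than Maltodextrin in 7 and lower in 1 with Probiotics. The FT libraries labelled ILC had 65.0, 129, 132, 122 and 138 CPM, against 5.57, 4.58, 5.85, 5.16 and 6.02 CPM in Control (4.004 ± 0.140, adjusted p = 8.66e-25), and carried LConly markers.

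**Figure D3:**
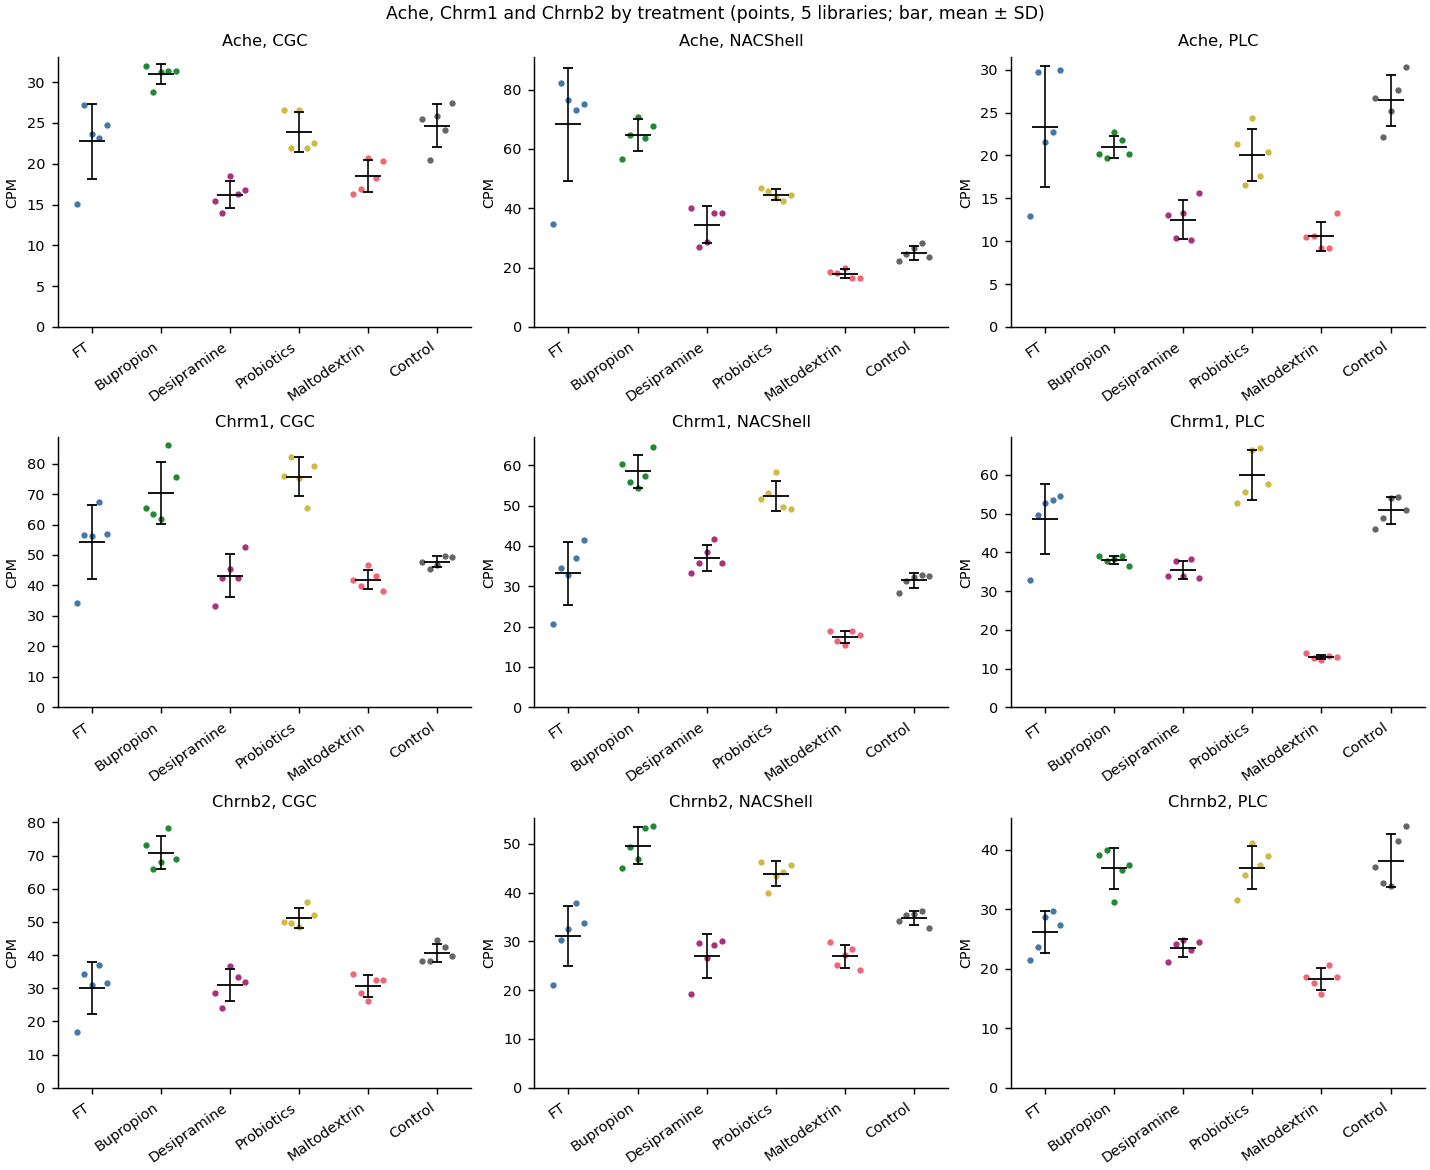
CPM of Ache, Chrm1 and Chrnb2 (rows) in CGC, NACShell and PLC (columns) under the 6 treatments, with a point for each of 5 libraries and bars for the mean ± SD. In NACShell all 3 genes are higher in Bupropion than in Control and in Probiotics than in Maltodextrin, and Chrm1 in PLC lies at 12.2 to 13.9 CPM in Maltodextrin, against 46.1 to 54.4 CPM in Control.

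Chrm1, a Gq-coupled muscarinic receptor of forebrain neurons, was high in PLC with Probiotics and low there with Maltodextrin. In Control it was highest in PLC (50.9 ± 3.52 CPM), CGC (47.8 ± 1.84 CPM), dorDG (41.7 ± 3.36 CPM) and venDG (40.8 ± 4.53 CPM), with no step between neighbours, and each further pair of neighbours passed, through NACShell (31.5 ± 1.80 CPM), BLA (18.9 ± 0.904 CPM), mPOA (5.35 ± 0.648 CPM) and ILC (2.85 ± 0.664 CPM) to LConly (0.668 ± 0.228 CPM). Raphe (0.558 ± 0.185 CPM) did not differ from LConly. In PLC, Chrm1 had 52.7, 55.7, 66.4, 67.0 and 57.6 CPM in Probiotics, against 13.9, 12.6, 12.2, 13.2 and 13.0 CPM in Maltodextrin (1.99 ± 0.0960, adjusted p = 3.32e-17). Control had 46.1, 48.8, 54.1, 54.4 and 51.0 CPM in PLC, and Maltodextrin fell below it (-1.89 ± 0.0951, adjusted p = 5.63e-17). The Maltodextrin libraries stood apart from both groups. Cortical excitatory neuron markers in PLC summed to 736 to 809 CPM in Probiotics, 613 to 679.7 in Maltodextrin and 816 to 866 in Control, and their part was not tested. In NACShell, Chrm1 averaged 52.4 ± 3.69 CPM in Probiotics, against 17.5 ± 1.54 CPM in Maltodextrin (1.61 ± 0.108, adjusted p = 3.37e-14), which was itself below Control (-1.04 ± 0.112, adjusted p = 2.05e-09). Bupropion had 60.3, 55.8, 54.4, 57.4 and 64.4 CPM in NACShell, against 28.4, 31.3, 32.3, 32.8 and 32.6 CPM in Control, with all its libraries above (0.81 ± 0.0918, adjusted p = 4.11e-09). Desipramine in PLC had 33.9, 37.7, 33.9, 38.4 and 33.4 CPM, below all of Control (-0.69 ± 0.0864, adjusted p = 4.46e-08), a call lost with Control and Maltodextrin pooled (-0.05, adjusted p = 0.912). In Raphe, FT had 1.37, 3.22, 2.50, 3.84 and 3.75 CPM, against 0.493, 0.333, 0.618, 0.834 and 0.510 CPM in Control, low levels that did not overlap (2.12 ± 0.308, adjusted p = 3.95e-07). Over 10 regions Chrm1 was higher in 8 and lower in 1 with Probiotics against Maltodextrin, and higher in 7 and lower in 2 with Bupropion against Control.

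Chrm1 was higher in ILC as well, where groups stood apart in markers. It had 36.1, 32.4, 40.8, 42.0 and 42.3 CPM in Bupropion, 16.8, 16.3, 20.9, 19.5 and 22.3 CPM in Desipramine and 7.87, 7.70, 8.39, 8.19 and 9.04 CPM in Maltodextrin, against 3.43, 2.04, 3.38, 2.24 and 3.18 CPM in Control. The log2 changes were 3.61 ± 0.119, adjusted p = 1.47e-24 with Bupropion, 2.27 ± 0.130, adjusted p = 7.17e-18 with Desipramine, and 1.19 ± 0.144, adjusted p = 3.67e-09 with Maltodextrin. No group overlapped Control, whose cortical excitatory markers were also low in ILC, at 302 to 322 summed CPM against 595 to 665 in Bupropion, 585 to 659 in Desipramine and 613 to 637 in Maltodextrin. Their part was not tested. Probiotics had 52.9, 48.6, 55.3, 55.0 and 59.6 CPM in ILC, above all of Maltodextrin (2.58 ± 0.111, adjusted p = 3.87e-19), with markers at 628 to 710.3 CPM. In venDG, Probiotics had 70.6, 65.6, 75.0, 71.9 and 76.0 CPM, against 37.6, 31.0, 27.4, 34.5 and 29.4 CPM in Maltodextrin (1.29 ± 0.0971, adjusted p = 3.19e-13). In BLA, Bupropion had 59.5, 54.7, 58.4, 65.4 and 63.2 CPM, against 20.1, 19.1, 17.5, 19.0 and 18.8 CPM in Control (1.78 ± 0.120, adjusted p = 3.24e-13), and with Control and Maltodextrin pooled the change was 1.17. Neither of these pairs of groups overlapped.

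Chrm2, a Gi-coupled receptor that also sits on cholinergic terminals, was higher with Desipramine in 7 of 10 regions and lower in 0. Its Control levels ran from LConly (7.30 ± 1.24 CPM) through Raphe (6.01 ± 1.44 CPM), mPOA (4.76 ± 0.694 CPM), BLA (4.37 ± 1.02 CPM), PLC (3.79 ± 0.881 CPM), NACShell (3.19 ± 0.269 CPM), dorDG (2.64 ± 1.09 CPM), ILC (2.44 ± 0.843 CPM) and CGC (2.43 ± 0.417 CPM) to venDG (1.06 ± 0.344 CPM), and only the last pair passed the exact permutation test among neighbours. In CGC, Chrm2 had 9.51, 5.06, 6.13, 8.89 and 5.95 CPM in Desipramine, 4.34, 4.35, 7.52, 4.27 and 2.79 CPM in FT and 4.83, 4.15, 5.92, 4.35 and 5.44 CPM in Maltodextrin, against 2.07, 2.93, 2.15, 2.14 and 2.83 CPM in Control. FT overlapped Control and the other groups did not. The log2 changes were 1.24 ± 0.203, adjusted p = 3.52e-06 with Desipramine, 0.80 ± 0.209, adjusted p = 0.00235 with FT, and 0.83 ± 0.2002, adjusted p = 0.00104 with Maltodextrin. With Control and Maltodextrin pooled, Desipramine was at 0.80, adjusted p = 0.00279, and FT at 0.36, adjusted p = 0.228. In Raphe, Chrm2 had 14.6, 11.4, 11.8, 13.0 and 10.5 CPM in Probiotics, against 8.83, 8.94, 7.54, 8.64 and 5.44 CPM in Maltodextrin (0.52 ± 0.149, adjusted p = 0.00533). Bupropion had 9.16, 8.67, 10.4, 9.79 and 9.40 CPM in Raphe, against 6.22, 5.53, 8.27, 5.69 and 4.34 CPM in Control (0.50 ± 0.151, adjusted p = 0.00804), a call that ended with Control and Maltodextrin pooled (0.33, adjusted p = 0.0591). Both pairs were without overlap in CPM. The gap between Bupropion and Control was narrow (8.67 against 8.27 CPM), and fitted changes there were shifted by -0.17 relative to CPM ratios.

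Chrm3, Gq-coupled like Chrm1, was lower with Bupropion in 8 of 10 regions and higher in 0, and with Desipramine it was higher in 6 and lower in 0. In Control it was highest in dorDG (44.5 ± 1.70 CPM), BLA (43.3 ± 3.19 CPM) and CGC (40.3 ± 3.99 CPM), with no step between neighbours. PLC (32.2 ± 2.79 CPM) and venDG (27.8 ± 3.10 CPM) formed the next set, then ILC (17.8 ± 2.23 CPM) and NACShell (16.3 ± 1.05 CPM), and last LConly (12.3 ± 2.31 CPM), mPOA (11.8 ± 2.11 CPM) and Raphe (11.005 ± 1.55 CPM). A step lay between these sets and none between neighbours within a set. In CGC, Chrm3 had 25.1, 25.3, 23.0, 25.7 and 23.4 CPM in Bupropion, 65.4, 65.9, 52.6, 63.2 and 58.5 CPM in Desipramine and 55.5, 59.1, 68.4, 57.8 and 51.7 CPM in Maltodextrin, against 36.3, 37.5, 43.8, 45.2 and 38.4 CPM in Control. In CPM, Bupropion lay wholly below Control, and Desipramine and Maltodextrin wholly above. The fitted changes of Maltodextrin in CGC were shifted by -0.20 relative to CPM ratios, so its gap need not hold on that scale. The log2 changes were -0.59 ± 0.0726, adjusted p = 3.49e-08 with Bupropion, 0.38 ± 0.0740, adjusted p = 3.89e-05 with Desipramine, and 0.34 ± 0.0710, adjusted p = 0.000204 with Maltodextrin, and with the pooled reference Desipramine was at 0.21, adjusted p = 0.0455. The Bupropion call in mPOA was lost without any 1 of Bupropion replicates 3, 4 and 5 and Control replicates 2 and 5, that in Raphe without Bupropion replicate 3 or Control replicate 3 or 5, and that in venDG without Bupropion replicate 2 or Control replicate 2 or 4. The adjusted p then reached 0.184 in mPOA, 0.0930 in Raphe and 0.0822 in venDG. The Desipramine call in Raphe (0.25) was lost without Desipramine replicate 2 or Control replicate 1 or 4, with adjusted p up to 0.155. In ILC, Chrm3 had 45.4, 43.2, 43.3, 47.2 and 42.9 CPM in Desipramine and 42.1, 41.2, 35.7, 40.3 and 46.0 CPM in Maltodextrin, against 19.2, 20.9, 16.4, 16.96 and 15.5 CPM in Control. Both groups were above Control, with log2 changes of 0.86 ± 0.0857, adjusted p = 3.23e-11 for Desipramine, and 0.88 ± 0.0853, adjusted p = 2.15e-11 for Maltodextrin, beside the low Control markers of ILC, and Desipramine was not called with the pooled reference (0.36, adjusted p = 0.0604). In NACShell, Chrm3 had 17.4, 13.7, 15.2, 13.9 and 11.7 CPM in FT, against 15.6, 17.1, 17.3, 14.8 and 16.4 CPM in Control, a small change with overlap (-0.33 ± 0.0860, adjusted p = 0.00198).

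Chrm4, the Gi-coupled receptor of striatal projection neurons, had its highest mean in NACShell in all 6 treatments. Its Control order was NACShell (30.3 ± 2.28 CPM) and BLA (28.3 ± 1.39 CPM), then CGC (22.4 ± 1.51 CPM) and PLC (20.5 ± 1.33 CPM), then venDG (16.5 ± 1.46 CPM), ILC (14.6 ± 1.60 CPM) and mPOA (12.9 ± 1.92 CPM), then dorDG (8.21 ± 0.921 CPM) and LConly (5.91 ± 2.21 CPM), and last Raphe (3.60 ± 0.435 CPM), with a step between these sets and none between neighbours within a set. In NACShell, FT had 41.9, 47.3, 49.3, 46.2 and 49.7 CPM, against 30.5, 34.0, 28.4, 28.6 and 29.9996 CPM in Control, without overlap (0.52 ± 0.0631, adjusted p = 2.48e-08). Striatal projection neuron markers in NACShell were lower in FT, at 1401 to 1505 summed CPM against 1667 to 1771 CPM in Control. In PLC, Chrm4 had 13.7, 13.5, 11.6, 11.6 and 11.1 CPM in Bupropion and 14.4, 15.6, 12.4, 15.7 and 12.1 CPM in Maltodextrin, against 19.1, 20.1, 22.7, 20.2 and 20.7 CPM in Control. Both lay below all of Control, with log2 changes of -0.65 ± 0.0903, adjusted p = 5.80e-07 for Bupropion, and -0.48 ± 0.0920, adjusted p = 5.64e-05 for Maltodextrin. In mPOA, Desipramine had 10.6, 7.55, 8.22, 9.19 and 8.36 CPM, against 10.3, 14.9, 12.4, 12.3 and 14.7 CPM in Control (-0.78 ± 0.132, adjusted p = 4.41e-06). Probiotics had 11.8, 11.4, 11.8, 15.6 and 12.8 CPM in mPOA, against 16.1, 19.8, 13.9, 16.6 and 13.4 CPM in Maltodextrin (-0.43 ± 0.122, adjusted p = 0.00639). The groups overlapped in both comparisons. FT (-0.37) and Bupropion (-0.71) were called lower in mPOA too, FT not without Control replicate 2 (-0.30, adjusted p = 0.0613) or replicate 5 (-0.32, adjusted p = 0.0504).

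The nicotinic subunits were followed in every region under Bupropion. Chrnb2, the beta subunit of the main heteromeric receptor of the brain, was higher than Control in 6 of 10 regions and lower in 0. Chrna4, its usual alpha partner, was higher in 4 and lower in 1, and Chrna7, which can form receptors alone, was higher in 1 and lower in 2. In CGC, Chrnb2 had 73.1, 66.0, 68.2, 78.3 and 68.9 CPM in Bupropion, against 38.3, 38.1, 44.5, 42.4 and 39.8 CPM in Control (0.93 ± 0.102, adjusted p = 2.77e-09). In NACShell it had 45.0, 49.4, 46.9, 53.3 and 53.6 CPM in Bupropion, against 34.1, 35.3, 35.7, 36.2 and 32.7 CPM in Control (0.43 ± 0.0862, adjusted p = 8.14e-05), and 0.67 in log2 with Control and Maltodextrin pooled. Neither region had overlapping groups. In ILC it had 35.3, 36.7, 41.9, 39.1 and 48.9 CPM in Bupropion, against 6.87, 4.65, 8.25, 7.53 and 5.76 CPM in Control, beside the low Control markers there (2.46 ± 0.134, adjusted p = 2.37e-18). In BLA it averaged 66.8 ± 4.50 CPM in Bupropion and 32.4 ± 2.75 CPM in Control (1.16 ± 0.113, adjusted p = 5.53e-10). In LConly the averages were 23.0 ± 2.27 CPM in Bupropion and 15.0 ± 1.28 CPM in Control (0.61 ± 0.162, adjusted p = 0.00176). In dorDG they were 37.5 ± 4.06 CPM in Bupropion and 25.1 ± 2.68 CPM in Control (0.63 ± 0.184, adjusted p = 0.0172), a call lost without Bupropion replicate 5 (0.56, adjusted p = 0.0566) or Control replicate 1 (0.58, adjusted p = 0.0557). In the remaining regions the groups overlapped and the log2 differences were 0.05 ± 0.136, adjusted p = 0.795 in mPOA, 0.05 ± 0.0910, adjusted p = 0.707 in PLC, -0.06 ± 0.101, adjusted p = 0.636 in Raphe, and 0.05 ± 0.0964, adjusted p = 0.714 in venDG. PLC was called with the pooled reference (0.45, adjusted p = 0.0411).

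Chrna4 in NACShell had 17.8, 17.4, 17.5, 19.0 and 18.1 CPM in Bupropion, against 13.1, 13.0, 9.68, 7.73 and 10.9 CPM in Control, all Bupropion libraries being higher (0.65 ± 0.119, adjusted p = 2.44e-05). With the pooled reference this change was 0.998. It averaged 17.8 ± 0.950 CPM in Bupropion and 12.7 ± 1.82 CPM in Control in BLA (0.60 ± 0.105, adjusted p = 1.66e-05; 0.36 with the pooled reference). In ILC it averaged 10.4 ± 0.951 CPM in Bupropion and 4.597 ± 0.376 CPM in Control (1.04 ± 0.143, adjusted p = 4.52e-08; 0.64 with the pooled reference), and in LConly 8.10 ± 1.19 CPM in Bupropion and 5.73 ± 0.812 CPM in Control (0.49 ± 0.121, adjusted p = 0.000858). PLC ran the other way, with 14.5, 10.8, 13.5, 12.7 and 13.2 CPM in Bupropion, against 17.4, 17.04, 18.9, 19.1 and 18.4 CPM in Control (-0.40 ± 0.0847, adjusted p = 0.000257), and this call ended with the pooled reference (-0.09, adjusted p = 0.632). The groups overlapped elsewhere, with log2 differences of 0.14 ± 0.122, adjusted p = 0.359 in CGC, 0.43 ± 0.383, adjusted p = 0.512 in dorDG, 0.14 ± 0.170, adjusted p = 0.539 in mPOA, -0.08 ± 0.109, adjusted p = 0.580 in Raphe, and -0.13 ± 0.191, adjusted p = 0.631 in venDG. CGC was called with the pooled reference (0.33, adjusted p = 0.0261).

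Chrna7 was lower in PLC and CGC with Bupropion. In PLC it had 1.56, 1.59, 0.929, 0.954 and 1.04 CPM in Bupropion, against 1.99, 1.88, 2.73, 2.22 and 2.62 CPM in Control (-0.82 ± 0.183, adjusted p = 0.000401), and in CGC 1.36, 1.67, 1.52, 1.60 and 1.43 CPM, against 2.81, 2.47, 2.05, 3.41 and 2.23 CPM in Control (-0.65 ± 0.201, adjusted p = 0.00709). Neither pair of groups overlapped. In ILC it had 1.30, 0.804, 2.13, 1.76 and 1.003 CPM in Bupropion, against 0.507, 0.654, 0.520, 0.407 and 0.728 CPM in Control (1.17 ± 0.287, adjusted p = 0.000481). That direction turned with Control and Maltodextrin pooled (-0.13, adjusted p = 0.784). The other regions were not called and their groups overlapped, at -0.18 ± 0.216, adjusted p = 0.511 in BLA, -0.21 ± 0.304, adjusted p = 0.711 in dorDG, 0.12 ± 0.227, adjusted p = 0.711 in mPOA, -0.53 ± 0.283, adjusted p = 0.121 in NACShell, and 0.09 ± 0.239, adjusted p = 0.778 in Raphe. LConly (-0.58 ± 0.265, adjusted p = 0.0602) passed without Control replicate 4 (adjusted p = 0.0199) or replicate 5 (adjusted p = 0.0472), and venDG (-0.36 ± 0.155, adjusted p = 0.0686) without Bupropion replicate 5 (adjusted p = 0.0231).

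**Figure D4:**
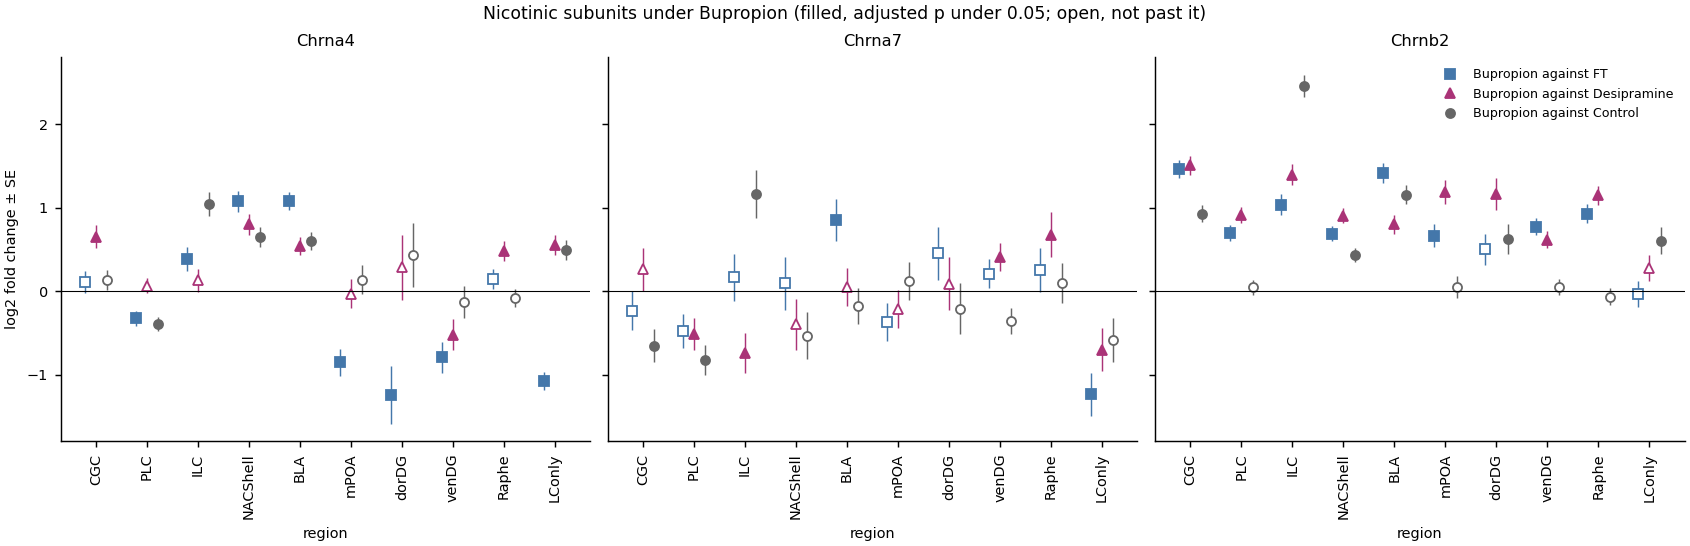
Fitted log2 fold change ± SE of Chrna4, Chrna7 and Chrnb2 in 10 regions for Bupropion against FT, Desipramine and Control, with filled symbols at an adjusted p under 0.05. Chrnb2 lies above 0 against Desipramine in all 10 regions, with 9 filled symbols, while Chrna7 scatters on both sides.

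Against the other drugs, each at its own dose, Bupropion was higher in Chrnb2 and, against Desipramine, in Ache. Of 98 tests against FT, 28 were higher with Bupropion and 30 lower, beside 24.4% and 25.6% of all genes. The FT libraries labelled ILC and LConly held each other's markers, so differences there cannot be told apart from the exchange of labels. In CGC, mPOA, NACShell, PLC and Raphe, 12 of 50 tests were higher than FT and 15 lower, beside 23% and 24.3% of all genes. Of 98 tests against Desipramine, 38 were higher with Bupropion and 33 lower, beside 28.7% and 27.5%. Chrnb2 was higher with Bupropion in 8 of 10 regions against FT and in 9 against Desipramine, and lower in 0 of either. In CGC, mPOA, NACShell, PLC and Raphe it was higher with Bupropion than with FT in 5 of 5. In CGC it averaged 70.9 ± 4.88 CPM in Bupropion, 30.1 ± 7.81 CPM in FT and 30.9 ± 4.83 CPM in Desipramine, a difference of 1.46 ± 0.111, adjusted p = 4.74e-13 from FT, and 1.51 ± 0.115, adjusted p = 1.58e-13 from Desipramine. Ache was higher with Bupropion than with Desipramine in 10 of 10 regions, by 0.34 to 1.62 in log2. In BLA, where Desipramine replicate 3 carried other markers, the difference was 0.53 ± 0.134, adjusted p = 0.00196, and 0.50, adjusted p = 0.000977 without the shallow libraries. The venDG call was lost without Bupropion replicate 5 (0.28, adjusted p = 0.0648). Chrm3 was lower with Bupropion than with Desipramine in 8 of 10 regions and higher in 0, and Chrm2 was lower in 7 and higher in 1. Chrna4 in NACShell averaged 17.9 ± 0.651 CPM in Bupropion, 8.49 ± 1.73 CPM in FT and 10.7 ± 1.65 CPM in Desipramine (1.08 ± 0.127, adjusted p = 2.39e-08 from FT, and 0.80 ± 0.128, adjusted p = 2.50e-06 from Desipramine). In mPOA it averaged 5.77 ± 0.881 CPM in Bupropion and 11.5 ± 3.22 CPM in FT (-0.85 ± 0.161, adjusted p = 7.07e-05). All these comparisons share the Bupropion libraries.

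Chrnb2 was lower than Control in CGC, mPOA, NACShell, PLC and Raphe with FT and with Desipramine. In Raphe it had 8.24, 15.7, 15.0, 18.4 and 16.8 CPM in FT and 12.1, 11.8, 10.7, 13.3 and 14.2 CPM in Desipramine, against 21.0, 22.3, 25.6, 28.0 and 23.1 CPM in Control. Neither group reached the Control range, with changes of -0.99 ± 0.113, adjusted p = 3.19e-09 for FT, and -1.21 ± 0.112, adjusted p = 4.74e-11 for Desipramine. With Control and Maltodextrin pooled, the FT calls in CGC, mPOA, NACShell and PLC ended (adjusted p from 0.145 to 0.896), and so did Desipramine in CGC (adjusted p = 0.0797) and NACShell (adjusted p = 0.156). In mPOA, Chrna4 had 7.09, 14.6, 12.4, 9.33 and 14.1 CPM in FT, against 4.50, 6.06, 5.35, 4.25 and 6.80 CPM in Control, all FT libraries being higher (0.99 ± 0.164, adjusted p = 7.13e-06). In PLC it had 15.1, 14.3, 12.8, 15.4 and 16.2 CPM in Desipramine, below all of the Control libraries given above (-0.46 ± 0.0869, adjusted p = 2.77e-05), a call that ended with the pooled reference (-0.16, adjusted p = 0.348). Chrna7 in CGC had 0, 1.73, 1.94, 2.15 and 0.887 CPM in Desipramine, against the Control values above (-0.91 ± 0.240, adjusted p = 0.00149), with overlap, and replicate 1, the library at 0, is among those under 1000000 counts. Without those libraries the change was -0.86, adjusted p = 0.00195. In ILC, Chrnb2 had 18.4, 15.4, 17.1, 20.8 and 23.6 CPM in Desipramine, above the low Control libraries (1.07 ± 0.147, adjusted p = 5.02e-08).

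In CGC, mPOA, NACShell, PLC and Raphe alike, Chrna4 and Chrnb2 were higher in Probiotics than in Maltodextrin and lower in Maltodextrin than in Control, where the Maltodextrin libraries serve both comparisons. The Probiotics call for Chrna4 in CGC (0.37) was lost without any 1 of Probiotics replicates 1, 3 and 5 and Maltodextrin replicates 2, 3 and 4, with adjusted p up to 0.102. In PLC, Chrnb2 had 31.5, 35.8, 41.1, 37.5 and 38.9 CPM in Probiotics, against 18.6, 17.6, 15.7, 20.7 and 18.5 CPM in Maltodextrin (0.82 ± 0.1004, adjusted p = 3.90e-08). Control had 37.1, 34.4, 33.8, 41.5 and 43.9 CPM there, and Maltodextrin was lower (-0.996 ± 0.0981, adjusted p = 3.68e-10). Chrna4 had 17.8, 17.9, 19.8, 20.9 and 18.8 CPM in Probiotics in PLC, against 10.9, 8.51, 11.3, 10.9 and 11.1 CPM in Maltodextrin (0.64 ± 0.0923, adjusted p = 6.52e-07), which lay below Control too (-0.71 ± 0.0897, adjusted p = 6.01e-08). For both subunits the Maltodextrin libraries overlapped neither group. In ILC, Chrnb2 had 36.0, 34.9, 38.8, 39.7 and 40.9 CPM in Probiotics, against 12.6, 12.4, 14.7, 10.4 and 12.6 CPM in Maltodextrin (1.46 ± 0.135, adjusted p = 3.50e-11). Chrna7 had its only Probiotics call in dorDG, with 0.710, 0.635, 0.733, 0.0761 and 2.86 CPM in Probiotics against 5.94, 5.78, 6.20, 4.46 and 3.56 CPM in Maltodextrin (-2.37 ± 0.357, adjusted p = 5.55e-07). Dentate granule cell markers in dorDG summed to 38.2 to 71.3 CPM in Probiotics, against 156 to 221 in Maltodextrin, and their part was not tested.

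The nicotinic subunits had different Control orders of regions. Chrna4 was highest in CGC (18.6 ± 1.25 CPM) and PLC (18.2 ± 0.906 CPM), then BLA (12.7 ± 1.82 CPM), Raphe (12.4 ± 0.751 CPM) and NACShell (10.9 ± 2.26 CPM), then LConly (5.73 ± 0.812 CPM), mPOA (5.39 ± 1.06 CPM), ILC (4.597 ± 0.376 CPM) and venDG (3.59 ± 0.622 CPM), and last dorDG (1.28 ± 0.496 CPM), with a step between these sets of regions and none between neighbours within a set. Chrna7 was highest in dorDG (6.10 ± 1.24 CPM) and venDG (5.81 ± 0.529 CPM), then BLA (3.61 ± 0.201 CPM). A step separated BLA from CGC, and from CGC on no step passed, with CGC (2.60 ± 0.538 CPM), PLC (2.29 ± 0.378 CPM), NACShell (2.20 ± 0.473 CPM), mPOA (1.59 ± 0.392 CPM), Raphe (1.37 ± 0.177 CPM), LConly (1.32 ± 0.419 CPM) and ILC (0.563 ± 0.127 CPM). Chrnb2 showed no step from mPOA (48.3 ± 4.15 CPM) through CGC (40.6 ± 2.77 CPM), venDG (39.0 ± 3.40 CPM), PLC (38.2 ± 4.44 CPM), NACShell (34.8 ± 1.39 CPM) and BLA (32.4 ± 2.75 CPM). Below these came dorDG (25.1 ± 2.68 CPM) and Raphe (24.0 ± 2.81 CPM), then LConly (15.0 ± 1.28 CPM) and ILC (6.61 ± 1.43 CPM). Over the 10 genes, 31 of 90 neighbouring pairs passed on CPM, and 41 with TMM library sizes, so the number of steps depends on the scaling.

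**Figure D5:**
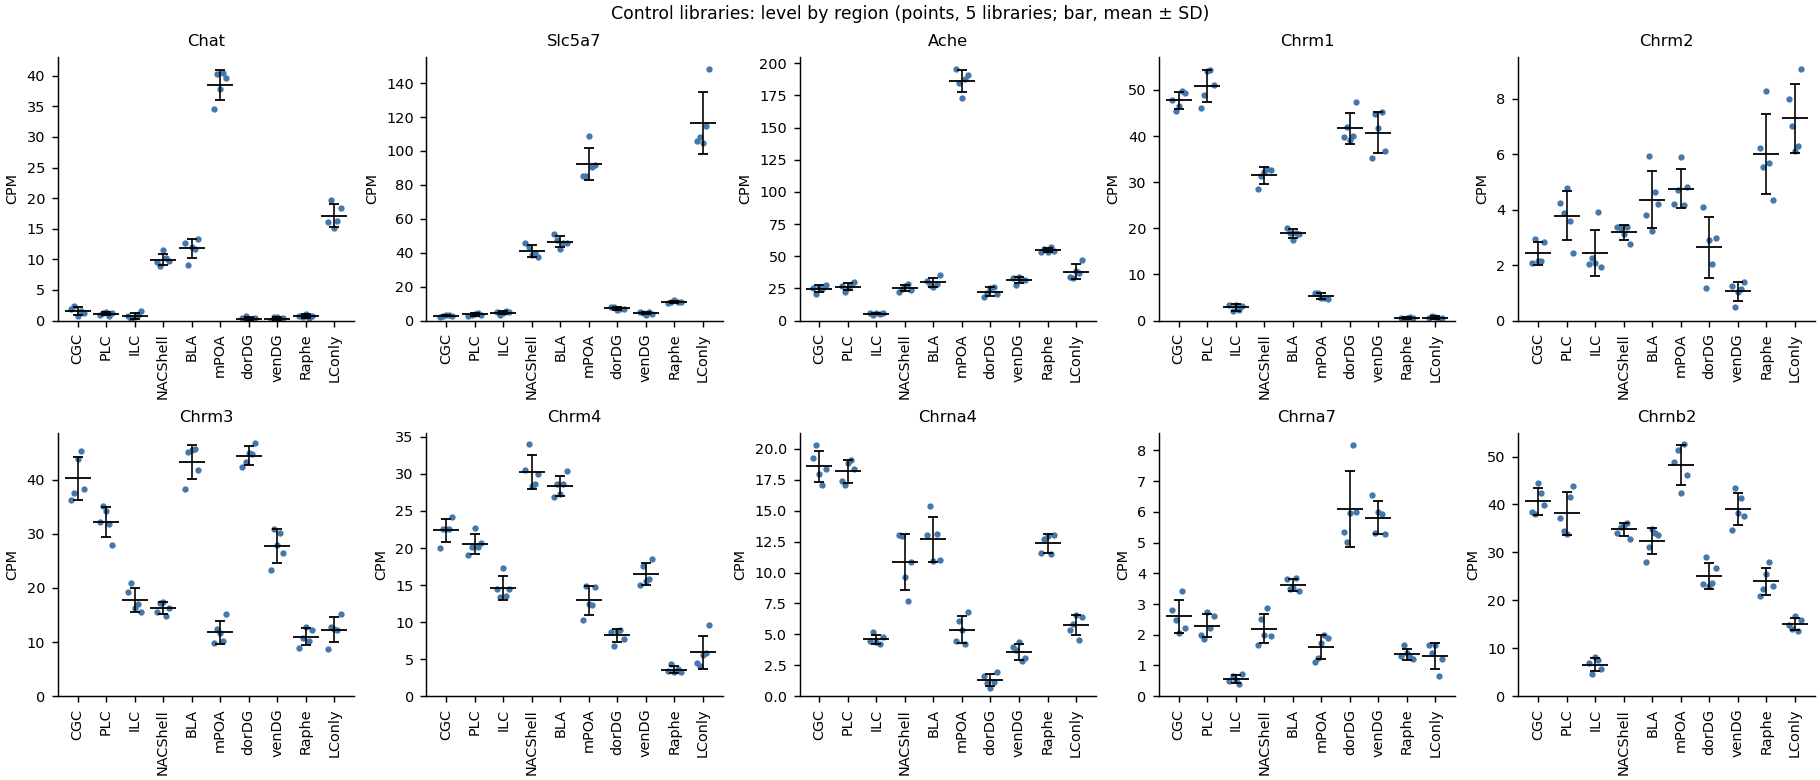
CPM of the 10 genes in the 10 regions of Control rats, with a point for each of 5 libraries and bars for the mean ± SD. Chat and Ache are highest in mPOA, Chrm1 is high in PLC, CGC, dorDG and venDG, and Chrna7 is highest in dorDG and venDG.

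For each of the genes the change differed between regions. In 1 model per comparison with region by treatment terms, 10 of 10 genes passed for FT, beside 92.8% of all genes, and 10 of 10 for Bupropion, beside 91.0%. The count was 10 of 10 for Desipramine, beside 88.0%, for Probiotics against Maltodextrin, beside 83.3%, and for Maltodextrin against Control, beside 90.7%. Shares this near the background are no result about these genes.

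FT replicate 1 stood apart from its group in the same genes across regions. It was the lowest of the 5 FT libraries in 10 of 10 regions for Ache, Chrm1 and Chrnb2 and in 9 of 10 for Chrna4, and the highest in 8 of 10 for Slc5a7. No other replicate of any treatment was lowest in more than 5 regions for Ache, Chrm1 or Chrnb2, and 1 was for Chrna4 in 7. For Slc5a7 none of the others was highest in more than 5 regions, but the most as lowest was 8. Others also reached 7 regions as lowest for Chrm3 and as highest for Chrnb2. Without it, 2 FT calls against Control ended, Chrm2 in Raphe (0.31, adjusted p = 0.0615) and Chrnb2 in NACShell (-0.17, adjusted p = 0.0610). The call for Chrnb2 also ended without FT replicate 2 (-0.24, adjusted p = 0.0527), and when fitted on the FT and Control libraries alone (-0.28, adjusted p = 0.0768).

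The remaining genes of cholinergic signalling were counted from 4 lists. Among the tests of all genes, 27.1% were higher and 26.3% lower under FT, and 22.9% and 23.4% under Bupropion. These shares were 26.4% and 27.9% under Desipramine, 21.7% and 21.1% under Probiotics, and 18.4% and 19.5% under Maltodextrin. Counts near such shares are no result about a list. Of 14 further receptor genes 9 passed the filter on low counts, and of their 68 tests Probiotics against Maltodextrin gave 17 higher and 1 lower, FT 15 higher and 18 lower, Bupropion 7 higher and 7 lower, Desipramine 10 higher and 10 lower and Maltodextrin 2 higher and 5 lower, the last 4 against Control. All 12 genes of choline handling were tested 108 times, with 26 higher and 32 lower under FT, 10 higher and 39 lower under Bupropion, 28 higher and 27 lower under Desipramine, 6 higher and 32 lower under Probiotics and 19 higher and 19 lower under Maltodextrin. Chka, which starts the path of choline into phospholipids, was higher in 0 of 10 regions with Probiotics and lower in 7. Acly, which makes acetyl-CoA in the cytosol, was higher in 1 and lower in 7 with Bupropion, and Pemt, which makes phosphatidylcholine, was higher in 1 and lower in 7 with Desipramine. Of the assembly and anchor list 8 of 10 genes were in the table, and of 79 tests FT gave 25 higher and 15 lower, Bupropion 23 higher and 20 lower, Desipramine 27 higher and 17 lower, Probiotics 30 higher and 9 lower and Maltodextrin 17 higher and 16 lower. Lynx1, a brake on nicotinic receptors, was higher in 10 of 10 regions with Probiotics, by 0.26 to 0.44 in log2. It was higher in 1 and lower in 6 with Maltodextrin against Control, and the Maltodextrin libraries serve both comparisons. With Bupropion it was higher in 4 and lower in 5, and Lypd1, of the same family, was higher in 7 and lower in 1. The 11 genes of muscarinic signalling gave 68 higher and 9 lower of 110 tests under Desipramine, 48 higher and 25 lower under FT, 45 higher and 25 lower under Bupropion, 51 higher and 21 lower under Probiotics and 39 higher and 17 lower under Maltodextrin. Plcb4, a phospholipase downstream of Gq, and Kcnj6, a potassium channel subunit opened through Gi, were each higher with Desipramine in 10 of 10 regions, with medians of 0.58 and 0.48 in log2. The list medians under Desipramine and Probiotics were 0.30 and 0.16 for muscarinic signalling, and -0.02 and 0.27 for the receptors, where all genes had 0.00 in both.

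Over the means of the 60 groups, the genes most like Chat among 11938 were Slc18a3 (r = 0.970), Isl1 (r = 0.908), a transcription factor of cholinergic and motor neurons, and Slc5a7 (r = 0.885). Those most like Slc5a7 were Inpp4b (r = 0.892) and Tacr1 (r = 0.888), those most like Ache Mid1ip1 (r = 0.956) and Nfatc2 (r = 0.935), and those most like Chrm1 Mink1 (r = 0.976) and Synpo (r = 0.964). The nearest to Chrm2 was Plcb4 (r = 0.929), to Chrm3 Rimbp2 (r = 0.893), to Chrm4 Acp5 (r = 0.888), to Chrna4 Nxph3 (r = 0.882), to Chrna7 Itpa (r = 0.828) and to Chrnb2 Ptprn (r = 0.898). These values describe groups that share libraries, depth and regional makeup.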

How the data were processed

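RNA was sequenced from 300 libraries of 10 brain regions and 6 treatments, prepared with a stranded total RNA kit per the labels' protocols. The values are raw read counts per gene, deposited by the authors in 1 table. STAR, HTSeq, FastQC and build rn6 are named per the submitters' processing notes, with versions, annotation and strand setting not given in the sources used here. Samples were grouped by the labelled treatment and region, and 0 columns were unmatched. Total counts per library gave CPM.

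All 30 libraries of a region entered 1 fit, in R 4.3.3 with edgeR 4.0.16 (limma 3.58.1), using filterByExpr, TMM scaling and the quasi-likelihood test, with p-values adjusted by Benjamini-Hochberg over all genes of that region and comparison. Adjusted p-values of log2 changes throughout are from this edgeR test with n = 5 libraries a group. Differences between regions were tested over the 100 libraries of a comparison, with replicate of each treatment in the model. Neighbouring regions in Control were compared by two-sided exact permutation tests on log2(CPM + 0.5), for which 5 against 5 libraries allow a smallest p of 0.00794. Descriptions used Python 3.11.15 with pandas 2.3.3, scipy 1.17.1 and matplotlib 3.10.9.

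In counts simulated for FT against Control in PLC over 12008 genes, 22.4% of genes changed 1.2-fold, 76.1% of those changed 1.5-fold and 87.9% of those changed 2-fold were called, and 0.0677% of unchanged genes. For the test between regions over 13562 genes the shares were 1.49%, 25.4%, 86.4% and 0.0150%. There the change was placed in PLC only and in genes with higher counts in PLC. All genes had the same spread and no replicate effect was simulated. These shares do not describe members with few counts, such as Chat and Chrna7 in PLC. Of 600 pairs of libraries of the same group, none was close enough to be a repeat, with a lowest chi-square per degree of freedom of 1.31.

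The genes and all lists were chosen with earlier results of these data known. Each gene is given in every region of Control and, per comparison, in the region among CGC, mPOA, NACShell, PLC and Raphe where it was called with the smallest adjusted p. In BLA, dorDG, ILC, LConly and venDG the 3 tests with the smallest adjusted p per comparison are given, and the nicotinic subunits under Bupropion in every region. From the pathway lists at most 2 genes with the most calls per comparison are named, and the genes most like each member are given by Pearson's r. Other values were chosen after they were seen. Alternatives were RLE size factors, no filter, DESeq2 1.42.0, only the groups compared, a replicate block, each replicate left out, libraries under 1000000 counts left out, fewer regions, and Control pooled with Maltodextrin.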

Additional observations from a re-analysis of the deposited data

Results flagged for a closer look

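In 8 of 147 groups of 5 libraries with a value in the report, 1 library lay apart from the other 4 by Dixon's 95% criterion, and chance gives such a library in about 1 in 20 groups. For Slc5a7 in mPOA, FT replicate 1 had 38.1 CPM, beside 16.6 to 21.4 CPM in the other 4 libraries, and Control replicate 3 had 109 CPM, beside 85.2 to 91.8 CPM in the other 4 libraries. These groups did not overlap. In LConly, FT replicate 1 had 12.5 CPM of Slc5a7, beside 6.39 to 7.38 CPM in the other 4 libraries, and Control replicate 5 had 148 CPM, beside 105 to 115 CPM in the other 4 libraries. For Ache, FT replicate 1 had 34.8 CPM in NACShell, beside 73.0 to 82.3 CPM in the other 4 libraries, and FT replicate 1 had 65.0 CPM in ILC, beside 122 to 138 CPM in the other 4 libraries. For Chrna4, Maltodextrin replicate 2 had 8.51 CPM in PLC, beside 10.9 to 11.3 CPM in the other 4 libraries, and Bupropion replicate 5 had 15.5 CPM in Raphe, beside 11.98 to 13.0 CPM in the other 4 libraries. The change differed between regions for 10 of 10 genes under FT, and likewise for 10 under Bupropion, 10 under Desipramine, 10 under Probiotics against Maltodextrin and 10 under Maltodextrin, by the interaction term, beside shares of all genes that were nearly as high.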

How the results depend on the processing

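Within CGC, mPOA, NACShell, PLC and Raphe alone, with fewer tests by construction, the called tests of 50, with the percentage of all genes' tests called there, numbered 24 (48.5%) for FT, 31 (45.9%) for Bupropion, 37 (56.6%) for Desipramine, 27 (38.7%) for Probiotics, 29 (42.5%) for Maltodextrin, 27 (47.2%) for Bupropion against FT and 37 (59.8%) for Bupropion against Desipramine. Leaving out 1 replicate of a group gave 58 to 64 for FT, 54 to 58 for Bupropion, 58 to 64 for Desipramine, 47 to 50 for Probiotics, 49 to 55 for Maltodextrin, 55 to 60 for Bupropion against FT and 66 to 71 for Bupropion against Desipramine, and 45 of 411 calls were lost without some 1 library, with 0 changes of sign. With the replicate block the counts were 60 for FT, 58 for Bupropion, 62 for Desipramine, 50 for Probiotics, 54 for Maltodextrin, 59 for Bupropion against FT and 71 for Bupropion against Desipramine. The labels share replicate numbers across groups, but deviations of same-numbered libraries correlated above 0.1 in every pair in 3 of 70 comparisons within a region, all in Raphe (FT and Bupropion against Control, and Bupropion against FT), where the block changed no call of these genes. Over the 7 comparisons 148 of 350 libraries correlated best with their own of the 5 numbers, a hint from the data of something shared by number (mean r 0.0583, against -0.0144 for other numbers). The change of 6 genes differed between regions under Probiotics within those 5 regions, beside 55.0% of all genes. In the order of Control levels, 41 of 90 neighbours differed with TMM library sizes, against 31 on CPM. In the Maltodextrin libraries 52 differed, and 0 without any 1 of the Control replicates. There the smallest exact p of 4 against 4 libraries did not survive adjustment. Pooling Control with Maltodextrin cost 51 calls of 294 tests and added 18, and it changed the sign of 5 called values, among them Chrna7 in ILC under Bupropion, at -0.13 in log2, where the cause was not tested. Calls lost and gained were 17 and 2 with DESeq2, 7 and 2 with RLE size factors, 7 and 2 without the filter, and 17 and 22 with only the groups compared. Of 87 single tests chosen by the stated rule, 71 were called and 63 of them under every alternative run. Changes of genes near 1 CPM, such as Chrna7 and Chrm1 in Raphe, rest on few counts a library.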
